A study of Mus musculus with 36 samples.

Results

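The measurements describe how wild-type (WT) 3T3-L1 cells changed their RNA between day 0 and day 2 of an adipogenic cocktail. The members are the genes whose level averaged 1 FPKM or more across the 6 WT libraries, which were 12549 of the 52505 genes in the deposited table. FPKM is a fragment count divided by gene length and by library depth. 3T3-L1 is a mouse fibroblast line that is grown to confluence and then turned into fat cells in culture. The series set WT cells beside cells labelled zfp217-/-, called KO-labelled here, each at day 0 and at day 2 with 3 RNA libraries, and its title concerns the role of Zfp217 in RNA methylation and fat cell formation. All cells were kept in DMEM with 10% fetal bovine serum and 1% penicillin/streptomycin. The cocktail, MDI, held insulin at 10 mg/mL, dexamethasone at 1 mM, isobutyl-methylxanthine at 0.5 mM and indomethacin at 100 umol/L, with the units as the labels write them. The labelled doses of dexamethasone and insulin are far above those in common use for this line, and whether the units are miswritten cannot be settled from the labels. The label on treatment is the same for every sample, day 0 included, so that day 0 is taken as untreated from its time alone. No group was kept for 2 days without the cocktail, so that the effects of the agents, of time and of cell density cannot be told apart. The labels do not say how the KO-labelled line was made, whether it is 1 clone, or whether the 3 libraries of a group are separate cultures. The p-values therefore speak only of the scatter among these libraries, which may be technical.

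Fat cell formation in 3T3-L1 cells runs as a relay of transcription factors. Dexamethasone acts through the glucocorticoid receptor and isobutyl-methylxanthine, which blocks phosphodiesterases, raises cyclic AMP. Both are known to act on C/EBP-beta and C/EBP-delta, which then switch on PPAR-gamma and C/EBP-alpha. These in turn drive the genes of fat storage, while insulin supports lipid synthesis and indomethacin, a cyclooxygenase inhibitor, can also bind PPAR-gamma. Early in the process the growth-arrested cells pass through a phase of renewed division, and the flat, contractile fibroblast rounds up and remodels its matrix.

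The 6 WT libraries held between 20446281 and 23114994 reads, recovered from the steps of the FPKM values. Between libraries of the same day Pearson's r across genes was 0.9912 to 0.9952, and between days it was 0.8393 to 0.8436. The first principal component of the 6 libraries held 95.1% of the variance and the second 1.9%. In WT day 0 replicate 3, 23 genes lay at least 4-fold from both other libraries of the group, and in the other WT libraries 1 to 3 genes did. These include the mitochondrial ribosomal RNA mt-Rnr1 (7.01, 5.87 and 264 FPKM at day 0), the chaperone gene Hsp90aa1 (27.2, 28.5 and 886 FPKM) and the ribosome assembly genes Rrp9 and Rrp12. In the KO-labelled day 0 libraries mt-Rnr1 was at 395, 379 and 396 FPKM and Hsp90aa1 at 178, 174 and 178 FPKM, so that these genes were high there too. The number of genes that held 50% of a library's reads was 905 to 923 at day 0 and 795 to 814 at day 2, and the share of reads from the mitochondrial genome went from 2.13 to 2.90% up to 3.33 to 3.78%. The members lowest in mean level were Thsd7a (1.0006 FPKM), 1700113A16Rik (1.0025 FPKM) and 9130024F11Rik (1.0027 FPKM), and just below the minimum lay Gm4032 (0.9989 FPKM), Myo1h (0.9981 FPKM) and Zfp951 (0.9980 FPKM).

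Most expressed genes changed within the 2 days. A gene is said to have risen or fallen where its adjusted p in limma was under 0.05. This test was run on log2(FPKM + 1), and all log2 changes below are on that scale, with the standard error (SE) after the ± sign, so that they understate the change of low genes. Folds are ratios of mean FPKM. Of the 12549 genes, 4414 rose (35.2%) and 5877 fell (46.8%), together 82.0% of them, and the median change of all genes was -0.11. The balance of calls depends on the scaling, with 4936 that rose and 5251 that fell under median-of-ratios scaling, and 5199 and 5076 under quantile normalization. A fitted log2 change of at least 1 on that scale was reached by 1239 genes that rose (9.87%) and 1945 that fell (15.5%). At a fitted change of 4 or more the order turned, with 69 genes that rose and 47 that fell. The 3 libraries of each day did not overlap in 4483 genes that were higher (35.7%) and 5954 that were lower (47.4%) at day 2. Because so many genes passed, a list in which most members changed is described by its direction and size, beside these shares. In bulk RNA such as this, fewer cells of a type and less RNA per cell cannot be told apart.

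**Figure D1:**
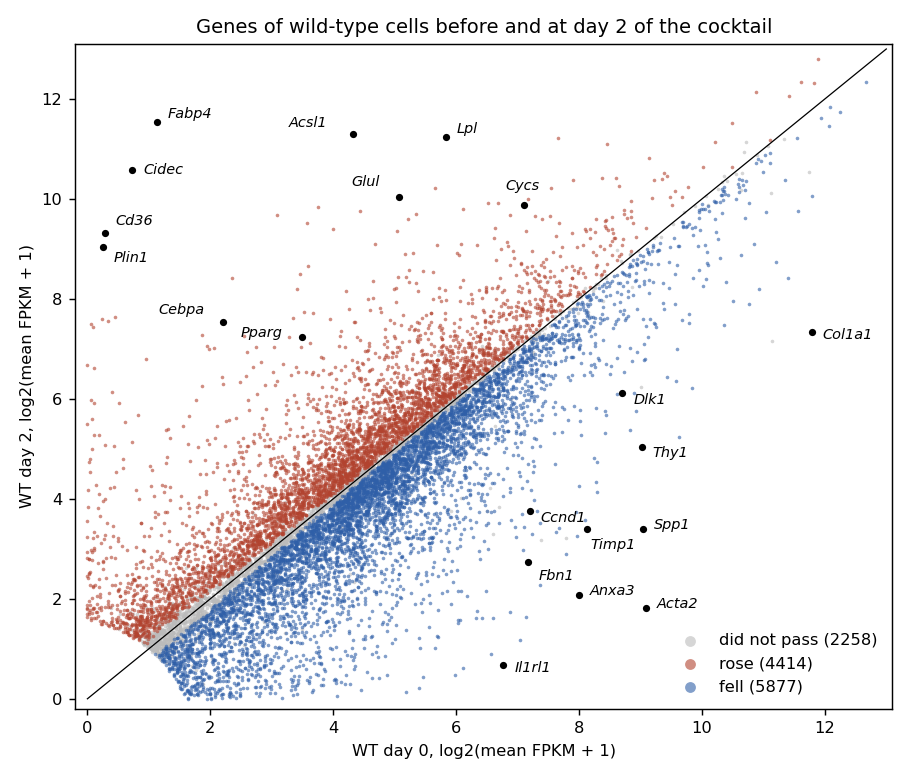
Level of each tested gene in WT cells at day 2 (vertical axis) against day 0 (horizontal axis), both as log2(mean FPKM + 1), each point a gene coloured by its call and the diagonal marking equal levels. The 4414 genes that rose lie above the diagonal and the 5877 that fell below it, with Fabp4 and Cidec at the upper left and Acta2 and Il1rl1 at the lower right.

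The largest rises were genes of the fat cell. Fabp4, the fatty acid carrier of adipocytes on chromosome 3 (10204342 to 10208616 of GRCm38.p6), was at 1.32, 1.16 and 1.06 FPKM at day 0 and at 3066, 2927 and 2931 FPKM at day 2, a 2516-fold rise (log2 change 10.41 ± 0.22, limma adjusted p = 6.10e-13). Every day 2 library was far above every day 0 library. Cidec, which fuses lipid droplets, went from 0.731, 0.468 and 0.780 to 1533, 1544 and 1487 FPKM (9.85 ± 0.19, 2307-fold, limma adjusted p = 2.67e-13). Cd36, a fatty acid receptor gene on chromosome 5 (17781690 to 17888959), went from 0.241, 0.233 and 0.187 to 643, 629 and 648 FPKM (9.04 ± 0.08, 2905-fold, limma adjusted p = 3.92e-16). Plin1, which encodes the coat protein perilipin of lipid droplets (chromosome 7, 79721164 to 79732904), went from 0.290, 0.169 and 0.130 to 526, 524 and 515 FPKM (8.77 ± 0.06, 2659-fold, limma adjusted p = 4.06e-17). In these 4 genes the day 0 libraries lay near or below 1.3 FPKM and the 3 day 2 libraries lay close together.

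The other largest rises mixed secreted proteins and lipid enzymes. From here on a range gives the lowest and the highest of the 3 libraries of a day. G0s2, an inhibitor of the lipase that starts lipolysis, was at 0 to 0.0559 FPKM at day 0, a total of 2 reads in the 3 libraries, and at 178 to 179 FPKM at day 2. Lcn2, the acute phase protein lipocalin 2, went from 0 to 0.105 up to 170 to 176 FPKM, and Agt, the precursor of angiotensin, from 0.249 to 0.464 up to 197 to 200 FPKM (539-fold). Acsl1, which activates fatty acids with coenzyme A, was already at 18.2 to 19.7 FPKM at day 0 and reached 2499 to 2528 FPKM (131-fold), and Dgat2, which makes triglyceride, went from 6.97 to 7.73 up to 795 to 823 FPKM (109-fold). Fam83a went from 0.123 to 0.255 up to 192 to 196 FPKM, and Ear2, of a family of near-identical ribonuclease genes whose reads may be split between copies, from 0.203 to 0.323 up to 179 to 199 FPKM. Retn, the adipokine resistin, had no read at day 0 and 106, 102 and 99.5 FPKM at day 2, which is at least 2176-fold higher when day 0 is set at a floor of 3 reads over its 3 libraries. Each of these 8 genes rose, with no overlap between the days.

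The 12 largest falls were of several kinds. Acta2, the smooth muscle actin of stress fibres (chromosome 19, 34240336 to 34255585), was at 549, 533 and 542 FPKM at day 0 and at 2.67, 2.22 and 2.73 FPKM at day 2, 213-fold lower (log2 change -7.26 ± 0.05, limma adjusted p = 9.38e-17). Il1rl1, the receptor of interleukin 33, fell from 108 to 109 down to 0.502 to 0.681 FPKM (179-fold), Pdpn, the membrane glycoprotein podoplanin, from 128 to 133 down to 1.11 to 1.36 FPKM (103-fold) and Timp3, a matrix-bound inhibitor of metalloproteases, from 60.7 to 63.7 down to 0.285 to 0.448 FPKM (161-fold). The chemokine gene Ccl2, the cytokine gene Spp1 (osteopontin), the BMP antagonist gene Grem1, the membrane-binding annexin gene Anxa3, the cyclic GMP kinase gene Prkg2, the myosin light chain gene Myl9, the growth factor gene Fgf7 and the sodium pump subunit gene Atp1b1 complete the 12 largest falls, between 42.0-fold (Atp1b1) and 268-fold (Myl9). The 12 were chosen among genes whose libraries did not overlap between the days, so that the gap itself is no result.

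Some genes appeared or disappeared at this depth. Of the tested genes, 12 had no read in any WT day 0 library and 3 had none at day 2, and all 15 passed the test, as the minimum let them in only through the day on which they are high. Besides Retn, those absent at day 0 include Pck1, which supplies glycerol phosphate for triglyceride (5.31 to 6.86 FPKM at day 2, at least 234-fold higher) and the receptor genes Ffar2 (6.50 to 6.70 FPKM, at least 172-fold) and Hcar2 (2.40 to 2.70 FPKM, at least 103-fold), which sense short fatty acids and ketone bodies. Also absent at day 0 were A530016L24Rik (at least 475-fold) and Ear-ps2 (at least 433-fold). Those with no read at day 2 were the proton pump subunit gene Atp6v0a4 (2.99 to 3.03 FPKM at day 0, at least 90.6-fold lower), the cornified envelope gene Lce1f (at least 32.7-fold lower) and Gm29630 (at least 22.0-fold lower). At 1 FPKM as a border, 616 of the tested genes reached it at day 0 only, 440 at day 2 only and 11493 on both days. Among protein-coding genes outside the mitochondrial genome, the most abundant on both days was Eef1a1, the elongation factor that brings tRNA to the ribosome, at 6419 to 6557 and then 5144 to 5254 FPKM. By day 2 the second was Mdm2, the ubiquitin ligase that degrades p53 and is amplified in some mouse 3T3 lines, which rose from 2727 to 2751 up to 4249 to 4321 FPKM (1.56-fold).

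The late transcription factors of fat cell formation rose together. Of 13 listed, 10 were tested and all 10 rose, against 35.2% of all genes, with a median log2 change of 2.47 against -0.11 over all genes. A low gene that passes the minimum only through its day 2 level must have risen, and 1 that passes only through its day 0 level must have fallen. Both hold for every list below, and a list's count is a description. Each count is to be read against the 35.2% of all genes that rose and the 46.8% that fell. Pparg, the receptor that defines the fat cell lineage (chromosome 6, 115360879 to 115490404), was at 9.68, 10.6 and 10.4 FPKM at day 0 and 154, 146 and 150 FPKM at day 2 (3.75 ± 0.09, 14.7-fold, limma adjusted p = 1.37e-12). Cebpa, its partner (chromosome 7, 35119293 to 35121928), went from 3.44, 3.80 and 3.64 to 180, 192 and 186 FPKM (5.34 ± 0.06, 51.3-fold, limma adjusted p = 1.58e-15). For both genes all day 2 libraries lay above all day 0 libraries. The coactivator genes Ppargc1b (1.35 to 1.75 up to 34.4 to 37.9 FPKM) and Ppargc1a (0.780 to 0.961 up to 6.83 to 7.03 FPKM), the phosphatase and coactivator gene Lpin1 (12.9-fold) and the sterol receptor gene Nr1h3 (9.58-fold) followed. Smaller rises were those of the retinoid receptor gene Rxra (3.36-fold), the lipogenic factor gene Srebf1 (3.76-fold), Ebf2 (3.25-fold) and Ebf1 (1.52-fold). Mlxipl was at 0 and Prdm16, a brown fat regulator, at or near 0, and both were below the minimum.

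**Figure D2:**
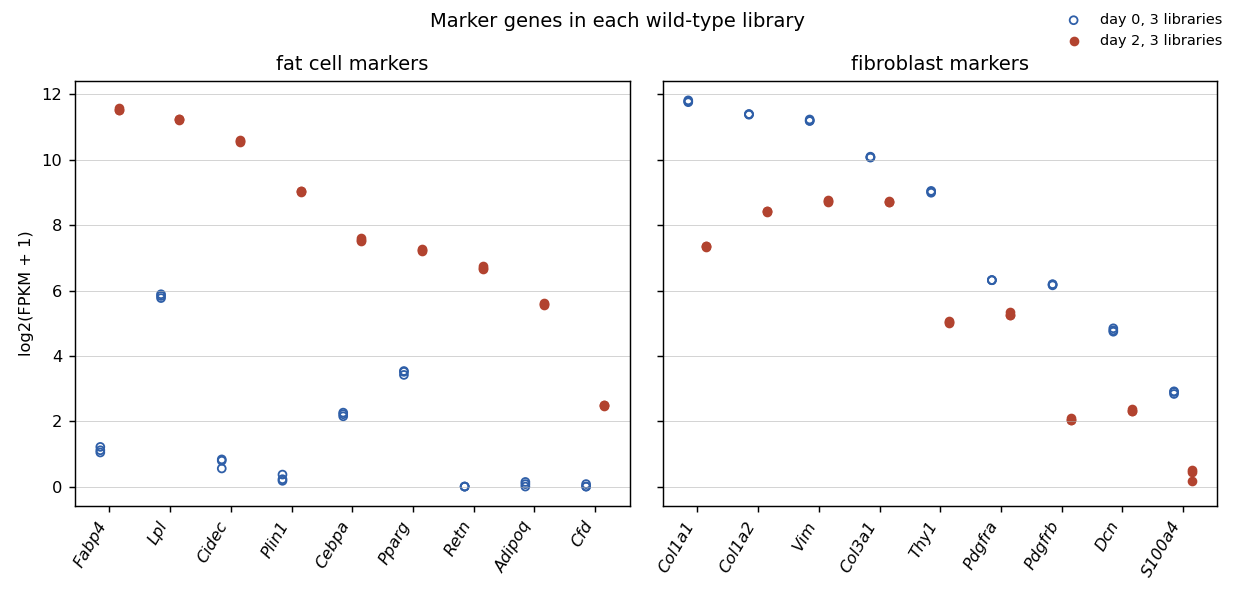
Level, as log2(FPKM + 1), of the 9 tested fat cell markers (left) and the 9 tested fibroblast markers (right) in each WT library, open points for the 3 day 0 libraries and filled points for the 3 day 2 libraries. Every fat cell marker is higher at day 2 and every fibroblast marker lower, and points of the same day nearly coincide in most genes.

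The early factors were less uniform. Of 15 listed, 12 were tested, 8 rose and 4 fell (median 0.80). Cebpb was at 54.0, 50.6 and 50.7 FPKM at day 0 and 252, 276 and 260 FPKM at day 2 (2.32 ± 0.07, 5.07-fold, limma adjusted p = 1.08e-11), and Cebpd went from 22.5, 18.9 and 21.2 to 56.7, 58.5 and 56.2 FPKM (1.41 ± 0.06, 2.74-fold, limma adjusted p = 2.04e-10). The libraries of the days did not overlap. The glucocorticoid target gene Klf9 rose 7.32-fold, the growth hormone signal gene Stat5a 6.06-fold and the activator gene Klf5 3.65-fold. Klf4, which acts upstream of Cebpb early on, fell 4.59-fold from 55.1 to 58.4 to a mean of 12.3 FPKM, and the AP-1 subunit gene Fosl2 fell 2.19-fold. The glucocorticoid receptor gene Nr3c1 itself rose by 1.14-fold only, from 35.6 to 37.2 up to 41.2 to 41.9 FPKM.

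Genes known to hold back fat cell formation mostly fell, 12 of 17 tested, while 5 rose (median -1.09). Quantile normalization leaves 10 that fell. Dlk1, the preadipocyte factor Pref-1 (chromosome 12, 109452485 to 109463336), was at 427, 407 and 413 FPKM at day 0 and 68.7, 69.9 and 67.4 FPKM at day 2 (-2.58 ± 0.02, 6.05-fold lower, limma adjusted p = 5.67e-16). No library of day 2 came near those of day 0. Klf2 fell 18.6-fold, Gata2 6.75-fold, the chondrogenic factor gene Sox9 5.40-fold and the nuclear receptor gene Nr2f2 3.88-fold. Those that rose were the stress factor gene Ddit3 (2.00-fold), the pseudokinase gene Trib3 (1.72-fold), the insulin-restrained factor gene Foxo1 (3.36-fold), Irf3 (1.38-fold) and the immediate early gene Egr1 (2.2-fold).

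Fatty acid uptake and activation changed by gene rather than as a block, with 8 of 12 tested genes up and 4 down (median 1.40). Lpl, which releases fatty acids from lipoproteins (chromosome 8, 68880555 to 68906932), went from 53.5, 56.0 and 58.1 to 2423, 2404 and 2428 FPKM (5.41 ± 0.03, 43.3-fold, limma adjusted p = 3.52e-17). All day 2 libraries were more than 40 times above those of day 0. The carrier gene Fabp5 rose 23.8-fold, the transporter gene Slc27a1 3.00-fold and the lipoprotein receptor gene Vldlr 2.59-fold. Among the acyl-CoA synthetases, which trap fatty acids in the cell, Acsl1 rose 131-fold while Acsl5 fell 4.93-fold, Acsl3 3.74-fold and Acsl4 1.60-fold. At day 0 Acsl3 (65.2 to 68.5 FPKM) was the highest of these 4 and Acsl1 the lowest, and at day 2 Acsl1 alone was above 26 FPKM.

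Genes of the lipid droplet and of triglyceride assembly rose nearly throughout. Of 11 droplet genes tested 9 rose and 2 fell (median 1.46). Besides Plin1 and Cidec, the coat gene Plin4 went from 3.44 to 3.63 up to 81.4 to 87.8 FPKM (24.0-fold), Plin2, the coat of small droplets in many cells, from 153 to 156 up to 788 to 814 FPKM (5.20-fold), and Fitm2, which helps droplets to form, rose 22.9-fold. Plin3 fell 2.27-fold from 47.5 to 51.7 down to 21.5 to 22.2 FPKM, and Hilpda, an inhibitor of lipase, fell 1.29-fold. Of 11 triglyceride genes 10 rose and 1 fell (median 3.57). They cover each step from glycerol phosphate to triglyceride, with Gpd1 up 51.7-fold, the acyltransferase genes Gpat3 58.2-fold, Gpam 6.31-fold and Agpat2 41.7-fold, Lpin1 12.9-fold and the final enzymes Dgat2 109-fold and Dgat1 13.6-fold. The gene that fell was Lpin2 (1.48-fold). Cav1, the main protein of caveolae, was at 703 to 727 FPKM and rose 1.46-fold.

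The genes that break triglyceride down rose as well, 7 of 8 tested with 1 that fell (median 3.04). Pnpla2, which encodes the first lipase of the pathway, went from 13.4, 11.5 and 12.3 to 909, 928 and 919 FPKM (6.11 ± 0.04, 74.2-fold, limma adjusted p = 4.49e-17). Lipe, hormone-sensitive lipase, went from 4.01, 4.16 and 4.11 to 340, 347 and 333 FPKM (6.07 ± 0.04, 83.1-fold, limma adjusted p = 4.06e-17). The days were far apart in both. The lipase activator gene Abhd5 rose 9.48-fold and the phosphodiesterase gene Pde3b, through which insulin restrains lipolysis, 5.63-fold. The adrenergic receptor genes Adrb1 and Adrb3 stayed below the minimum, Adrb3 at a mean of 0 and then 0.166 FPKM. The gene that fell was the lysosomal lipase gene Lipa (27.5 to 27.8 down to 23.9 to 26.1 FPKM). Its fall is lost under median-of-ratios and quantile scaling, where 7 rose and 0 fell.

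Secreted products of the fat cell spanned a wide range of levels at day 2. Of 12 tested, 11 rose and 1 fell (median 5.31). Adiponectin, Adipoq, was at 0, 0.0532 and 0.103 FPKM at day 0, 3 reads in all, and at 46.8, 48.0 and 46.5 FPKM at day 2. Adipsin, Cfd, had 1 read at day 0 and 4.58 to 4.68 FPKM at day 2. Angptl4, an inhibitor of lipoprotein lipase, rose from 23.0 to 26.4 up to 549 to 551 FPKM (22.4-fold), Nampt, an enzyme of NAD synthesis, 4.63-fold, and Mrap, which carries melanocortin receptors to the surface, from 0.0566 to 0.112 up to 57.6 to 60.4 FPKM (779-fold). The resistin-like gene Retnla (3 reads at day 0) reached 95.4 to 99.6 FPKM. Leptin, Lep, was at 0 in all WT libraries, and Rbp4 was at 0 as well. The gene that fell was the apelin gene Apln (1.22-fold), and under quantile normalization 11 rose and 0 fell.

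Lipid synthesis did not move as a block. Of 18 genes of fatty acid synthesis tested, 10 rose, 5 fell and 3 did not pass (median 0.46), and 13 rose under median-of-ratios scaling. Scd1, which makes monounsaturated fatty acids, was at 50.6, 50.3 and 51.0 FPKM at day 0 and 536, 542 and 544 FPKM at day 2 (3.39 ± 0.02, 10.7-fold, limma adjusted p = 3.52e-17), and Fasn, fatty acid synthase, rose from 202 to 204 up to 714 to 749 FPKM (3.63-fold). The first enzymes of the route did otherwise. Acly, which makes cytosolic acetyl-CoA, fell 1.93-fold from 216 to 222 down to 113 to 114 FPKM, and Acaca, acetyl-CoA carboxylase, was at 47.9 to 49.7 and 48.7 to 51.3 FPKM (limma adjusted p = 0.280). Elovl6, which lengthens saturated and monounsaturated fatty acids, fell 7.45-fold. The genes that desaturate and lengthen polyunsaturated fatty acids fell too, Fads2 6.21-fold, Fads1 5.13-fold and Elovl5 2.47-fold. Thrsp, a lipogenic gene, went from 0.0347 to 0.0728 up to 8.24 to 8.29 FPKM.

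Cholesterol synthesis fell in most of its genes, 17 of 23 tested, while 4 rose (median -0.93). Squalene synthase Fdft1 was at 81.6, 81.8 and 84.9 FPKM at day 0 and 23.1, 24.0 and 23.9 FPKM at day 2 (3.49-fold lower), with no overlap between the days. The sterol carrier gene Stard4 fell 4.90-fold and Srebf2, the factor that drives the pathway, 2.16-fold. Cyp51, which removes a methyl group from lanosterol, went against the others, from 112 to 115 up to 528 to 539 FPKM (4.71-fold), and Hmgcs1 (1.64-fold), Lss (1.57-fold) and Insig1 (1.45-fold), the protein that holds the factor in the endoplasmic reticulum, rose too. Dhcr7 (75.8 to 76.7 and 77.0 to 79.2 FPKM) and Idi1 did not pass, and Idi1 was uneven within day 2, at 304, 299 and 149 FPKM.

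**Figure D3:**
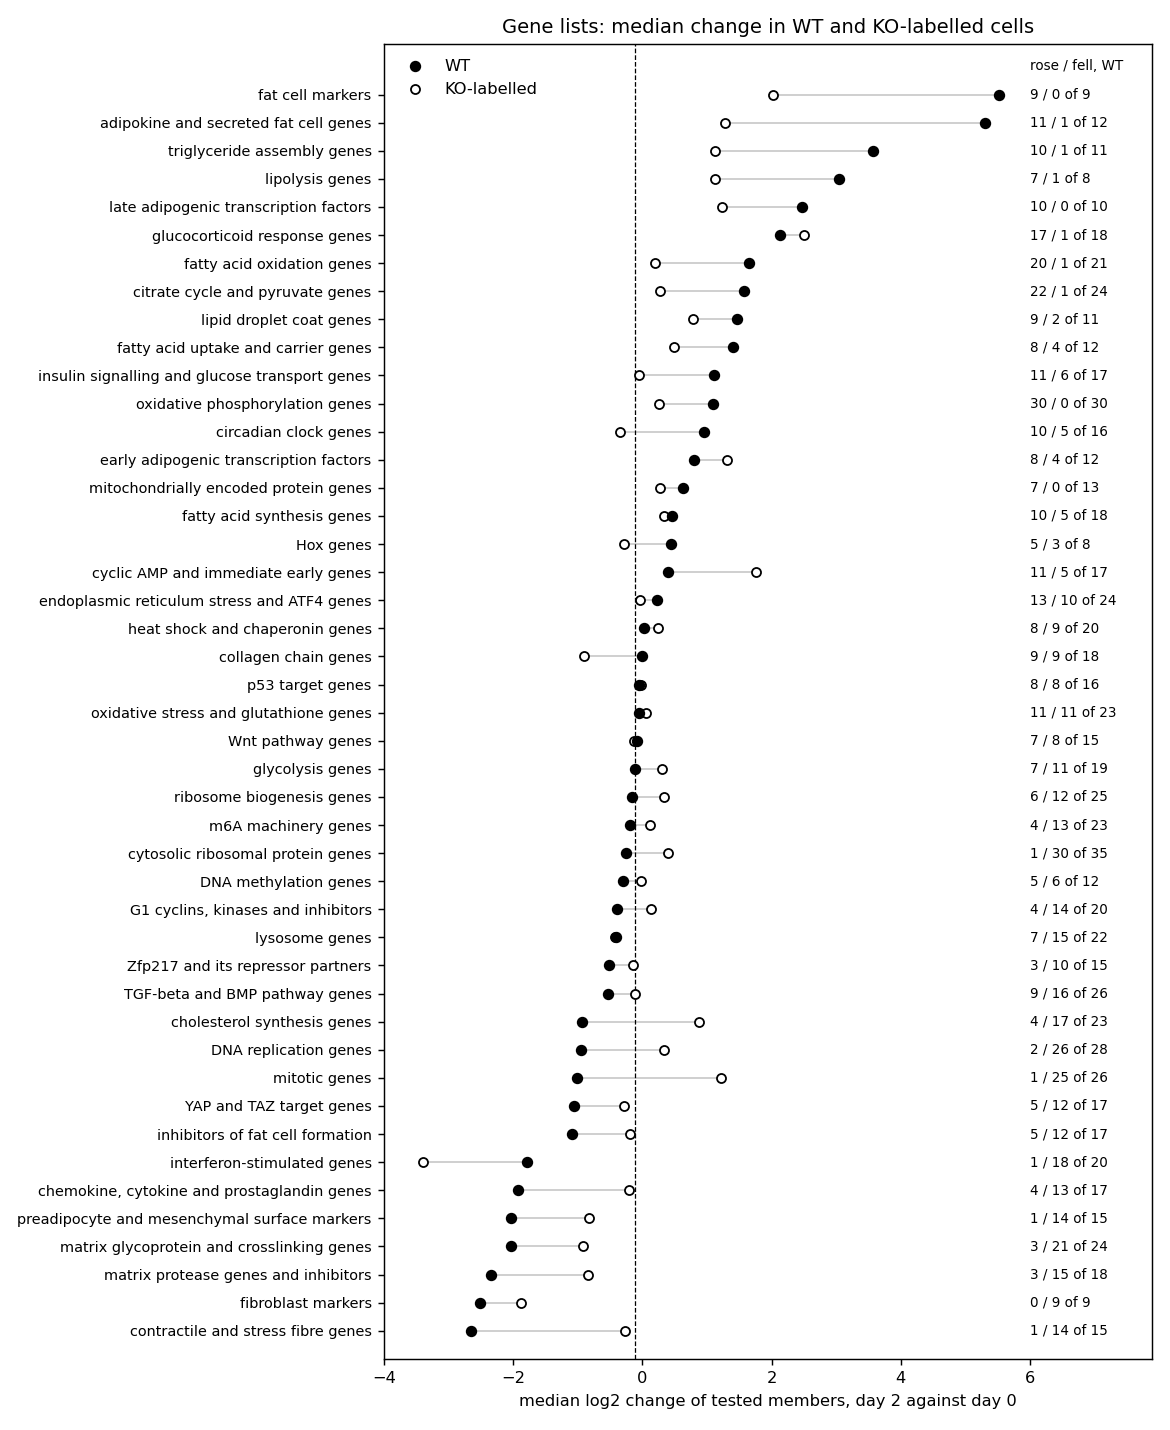
Median log2 change of the tested members of gene lists between day 0 and day 2 (horizontal axis). Filled circles are for WT cells and open circles for KO-labelled cells, with the count of members that rose and fell in WT at the right. Lists with 4 or fewer tested members, such as thermogenic genes, are not drawn. The dashed line marks the median of all genes in WT, -0.11, and the lists run from fat cell markers at 5.52 to contractile genes at -2.66.

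Nuclear genes of mitochondrial energy metabolism rose nearly throughout, and those of the mitochondrial genome did so in part. All 30 oxidative phosphorylation genes tested rose, with a median of 1.09, and 30 rose under TPM, median-of-ratios and quantile scaling as well. Examples from the other complexes are Sdha of complex II (304 to 308 up to 645 to 649 FPKM), Uqcrfs1 of complex III (3.35-fold), Cox4i1 of complex IV (2.15-fold) and Atp5b of the ATP synthase (1422 to 1455 up to 2901 to 2938 FPKM). Cycs, cytochrome c, stood above the rest, from 133, 139 and 136 to 941, 957 and 939 FPKM (2.79 ± 0.06, 6.95-fold, limma adjusted p = 8.89e-13). The smallest rise was that of Ndufa2 of complex I (1.42-fold). Of the 13 protein genes of the mitochondrial genome 7 rose, among them mt-Nd2 (1823 to 1898 up to 4464 to 4526 FPKM, 2.40-fold) and mt-Co1 (3501 to 3837 up to 5020 to 5215 FPKM, 1.41-fold). The other 6 did not pass and varied several-fold within a day, such as mt-Co2 at 4145, 5076 and 1065 FPKM at day 0. These short, partly overlapping genes have near-identical copies in the nuclear genome, and how the authors shared out such reads is not given in the sources used here.

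Citrate cycle and pyruvate genes rose in 22 of 24 (median 1.58), with 1 that fell and 1 that did not pass. Pcx, pyruvate carboxylase, which refills the cycle and feeds lipid synthesis, went from 14.9, 14.0 and 15.7 to 659, 679 and 668 FPKM (5.40 ± 0.03, 44.9-fold, limma adjusted p = 4.06e-17). The isocitrate dehydrogenase subunit gene Idh3a rose 12.6-fold while its partners Idh3b and Idh3g rose 2.54-fold and 1.94-fold. The pyruvate carrier genes Mpc2 (10.8-fold) and Mpc1 (7.09-fold) rose. Among the kinases that switch off pyruvate dehydrogenase, Pdk4 (18.2-fold) and Pdk2 (6.09-fold) rose and Pdk1 fell (1.44-fold). Fatty acid oxidation genes rose in 20 of 21 (median 1.65), such as the acyl-CoA dehydrogenase gene Acadm (67.2 to 69.1 up to 874 to 900 FPKM, 13.0-fold), the peroxisome gene Pex11a (17.9-fold) and catalase Cat (7.09-fold). The exception was Cpt1a, the entry gate of fatty acids into mitochondria, which fell 2.07-fold from 29.4 to 30.7 down to 14.3 to 14.9 FPKM. Cpt1b, its muscle form, was below the minimum.

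Glycolysis genes moved in both directions. Of 19 tested, 7 rose, 11 fell and 1 did not pass (median -0.12). Hk1, the housekeeping hexokinase, was at 154, 151 and 154 FPKM at day 0 and 22.9, 24.5 and 25.1 FPKM at day 2 (6.33-fold lower), while Hk2, the form that insulin controls, went from 20.0, 19.6 and 20.3 to 146, 152 and 151 FPKM (7.48-fold higher). The sets of libraries thus changed places. Of the lactate dehydrogenases, Ldha fell 1.27-fold and Ldhb rose 5.77-fold. The enolase genes Eno1 and Eno3 fell 2.78-fold and 15.7-fold, and aldolase Aldoa rose 2.22-fold. Pfkfb3, which makes an activator of glycolysis, rose 12.8-fold. Gapdh could not be judged, with 154 FPKM in WT day 2 replicate 3 against 28.3 and 27.6 in the other day 2 libraries and 33.1 to 43.7 at day 0 (limma adjusted p = 0.677), and it has many processed copies in the mouse genome.

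Markers of thermogenic fat were mostly absent. Of 15 listed, 11 were below the minimum, with Ucp1, which defines the brown fat cell, at 0 in all WT libraries, and Cidea, Dio2 and Zic1 at means of at most 0.0484 FPKM. The 4 tested rose, which are Ppargc1a (7.86-fold), the glycerol kinase gene Gk (3.44-fold), Cox7a1 (0.965 to 1.55 up to 2.45 to 4.63 FPKM) and Elovl3 (2 reads at day 0, 4.49 to 5.01 FPKM at day 2).

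The insulin pathway changed at the level of isoforms too, with 11 of 17 genes up and 6 down (median 1.11). The insulin receptor gene Insr rose 3.14-fold and the growth factor receptor gene Igf1r fell 1.82-fold. The adaptor gene Irs2 rose 6.40-fold and Irs1 fell 1.38-fold, and the kinase gene Akt2 rose 3.12-fold while Akt1 fell 1.69-fold from 548 to 576 down to 327 to 342 FPKM. The transporter gene Slc2a4 (GLUT4), which insulin sends to the surface, had 1 read at day 0 and 17.0, 17.1 and 17.1 FPKM at day 2. Slc2a1 (GLUT1), the transporter of growing cells, fell from 155, 153 and 152 to 37.9, 36.0 and 34.8 FPKM (4.23-fold). At day 2 Slc2a1 was still above Slc2a4 per gene length in all 3 libraries. Genes that link the receptor to GLUT4 rose, Tbc1d4 10.8-fold and the phosphatidylinositol kinase subunit gene Pik3r1 8.73-fold, and Grb14, an inhibitor of the receptor, fell 10.5-fold.

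**Figure D4:**
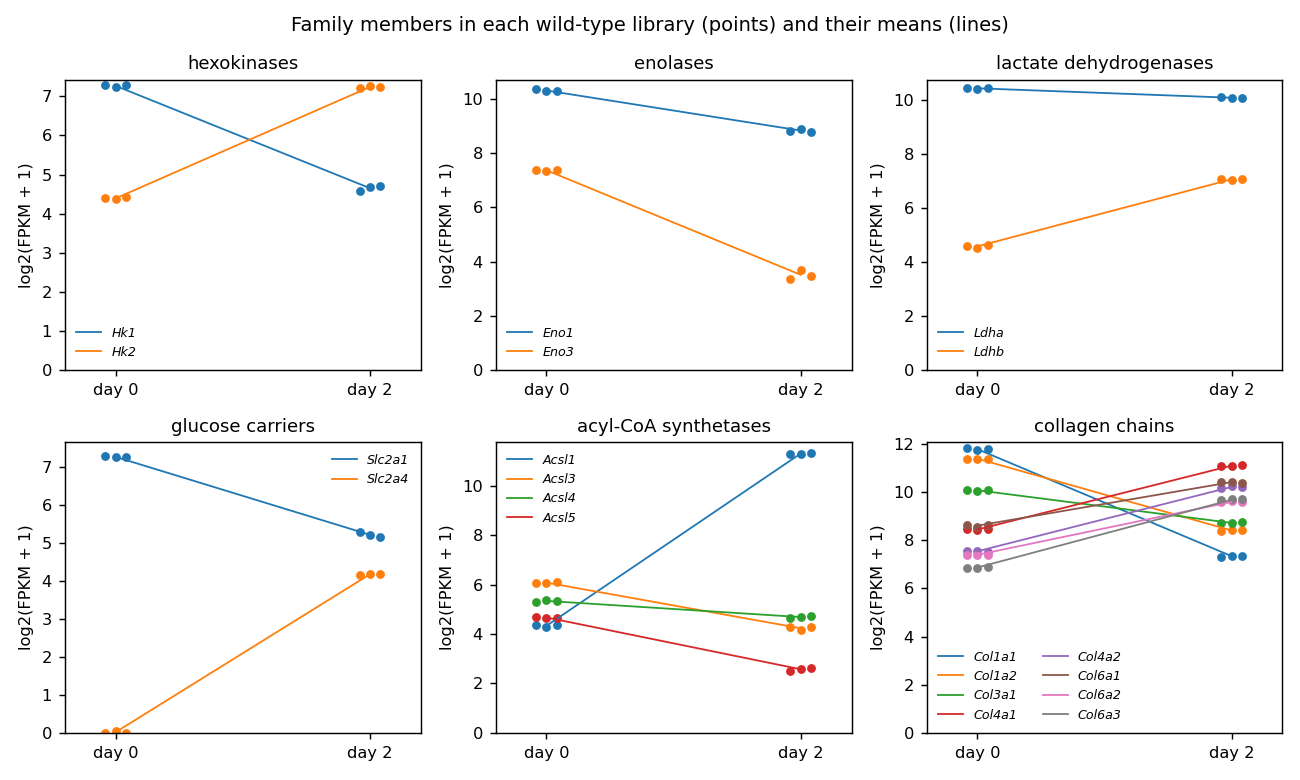
Level, as log2(FPKM + 1), of related genes in 6 families in each WT library at day 0 and day 2, points for single libraries and lines joining the log2 of the day means. The lines of Hk1 and Hk2 cross, Slc2a1 falls as Slc2a4 rises without meeting it, and Col4a1 and the Col6 chains end above Col1a1.

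The hormones of the cocktail have known target genes. Of 18 glucocorticoid response genes tested 17 rose and 1 fell (median 2.13). Fkbp5, a chaperone that binds the receptor, was at 35.6, 36.8 and 35.7 FPKM at day 0 and 778, 779 and 771 FPKM at day 2 (4.39 ± 0.05, 21.5-fold, limma adjusted p = 5.54e-15). Glutamine synthetase Glul rose 32.5-fold, the immune regulator gene Tsc22d3 4.40-fold, Bcl6 11.2-fold, the clock gene Per1 4.22-fold and the metal binding gene Mt1 1.53-fold. Zbtb16, a strict glucocorticoid target in many cells, had 1 read at day 0 and 12.6 to 13.7 FPKM at day 2. Sgk1 rose by 1.09-fold only. The gene that fell was Anxa1, an inhibitor of inflammation, from 1733 to 1755 down to 229 to 245 FPKM (7.30-fold). Several of these, such as Pdk4, Angptl4 and Lcn2, are also known to respond to fatty acid receptors or inflammation, and some of the 18 are on other lists here too.

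Cyclic AMP targets and immediate early genes, sampled long after the first minutes of treatment, were mixed, with 11 of 17 up and 5 down (median 0.39). Fos rose 4.09-fold from 3.45 to 4.73 up to 16.4 to 18.5 FPKM, the nuclear receptor gene Nr4a1 2.31-fold and the phosphodiesterase genes Pde4d and Pde4b 2.31-fold and 2.05-fold. Jun (2.56-fold), Egr3 (4.69-fold), Ier3 (5.24-fold) and Nr4a2 (4.35-fold) fell. Atf3 did not pass. The cyclic AMP response element TGACGTCA was searched on both strands in the 250 bases before gene starts in the RefSeq annotation of GRCm38.p6. The motifs named below were searched likewise. Promoter sequences were available for 8857 of the 12549 genes only, and some genes had several promoters. In this list 12 of 17 tested genes had one, and 20 of 30 oxidative phosphorylation genes did. The response element was found in 2 of 19 promoters of the list (10.5%), those of Btg2 and Dusp1, and in 2.68% of 11343 promoters of tested genes. The promoter of Dusp1, a phosphatase of MAP kinases that rose 1.33-fold from 20.5 to 21.5 up to 27.1 to 29.2 FPKM, is shown because it holds the complete element, in capitals, at 143 to 136 bases before the start (chr17:26508473-26508722, minus strand). A match of letters is a description and no proof of binding.
Dusp1: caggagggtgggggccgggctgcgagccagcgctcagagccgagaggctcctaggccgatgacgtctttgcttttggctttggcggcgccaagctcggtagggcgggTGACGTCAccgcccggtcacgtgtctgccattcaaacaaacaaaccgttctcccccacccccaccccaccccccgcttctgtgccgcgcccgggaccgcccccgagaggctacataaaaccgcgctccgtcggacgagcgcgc

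Clock genes changed as well. Of 16 tested 10 rose, 5 fell and 1 did not pass (median 0.96), and under median-of-ratios or quantile scaling 3 fell. The nuclear receptor gene Rora rose 6.07-fold, Per2 3.11-fold, the repressor gene Nr1d1 3.29-fold and the output gene Dbp 3.35-fold from 3.62 to 5.20 up to 14.9 to 15.5 FPKM. Arntl (Bmal1), the partner of Clock, fell 3.33-fold from 17.4 to 17.8 down to 4.88 to 5.76 FPKM, and Clock rose 2.21-fold. A single time of day was sampled at each end, and its hour is not in the labels. The D-box TTATGTAA, to which Dbp and its relatives bind, was found in 1 of 19 clock promoters (5.26%), that of Per3, against 0.379% of all promoters.

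Genes of cell division were lower at day 2. Of 26 mitotic genes 25 fell and 1 rose, against 46.8% of all genes that fell (median -1.01). The proliferation marker gene Mki67 was at 50.1, 55.7 and 55.4 FPKM at day 0 and 24.0, 24.4 and 24.5 FPKM at day 2 (-1.11 ± 0.06, 2.21-fold lower, limma adjusted p = 1.92e-09). Ccnb1, the cyclin of entry into mitosis, fell from 86.4, 89.4 and 89.1 to 53.2, 54.2 and 54.3 FPKM (1.64-fold). The largest fall was that of Kif23, a motor of the dividing cell's midbody (5.67-fold), and Foxm1, which drives this programme, fell 3.43-fold. Top2a, which untangles chromosomes, rose 1.10-fold from 177 to 179 up to 188 to 200 FPKM, and did not pass as a rise under quantile normalization. Mitotic messages were still measured at day 2, with Cdc20 at 70.6 to 78.0 FPKM and Tpx2 at 48.4 to 49.1 FPKM. Promoters of such genes are known for CCAAT boxes and for the cell cycle element TTTGAA. The box was in 19 of 22 promoters of the list (86.4%, 36.0% of all) and the element in 8 (36.4%, 10.5% of all). The promoter of the kinase gene Cdk1, which fell 1.92-fold, is shown because it holds both, the box on the other strand (in reverse complement) at 208 to 204, 80 to 76 and 48 to 44 bases and the element at 71 to 66 and 15 to 10 bases before the start, in capitals (chr10:69352913-69353162, minus strand).
Cdk1: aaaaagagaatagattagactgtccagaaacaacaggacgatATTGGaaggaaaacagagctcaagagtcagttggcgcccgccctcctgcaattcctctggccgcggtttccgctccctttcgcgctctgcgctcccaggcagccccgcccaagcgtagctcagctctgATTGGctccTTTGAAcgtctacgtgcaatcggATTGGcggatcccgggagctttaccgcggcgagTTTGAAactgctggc

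DNA replication genes fell in 26 of 28, and 2 rose (median -0.95). The helicase subunit gene Mcm5 was at 85.0, 83.0 and 84.0 FPKM at day 0 and 30.8, 31.2 and 30.9 FPKM at day 2 (-1.41 ± 0.03, 2.71-fold lower, limma adjusted p = 2.49e-12). Uhrf1, which copies DNA methylation, fell 5.07-fold, the polymerase gene Pola1 3.49-fold, the ligase gene Lig1 3.38-fold and the clamp gene Pcna 2.02-fold. The nucleotide reductase gene Rrm2 fell by 1.17-fold only. Cdc45 (1.52-fold) and Gins4 (1.14-fold), partners of the Mcm helicase, rose. The E2F site, searched as TTTCCCGC or TTTGGCGC, was in 6 of 25 promoters of the list (24.0%), those of Cdc6, Gins3, Mcm5, Mcm6, Mcm7 and Pola1, against 2.51% of all promoters. The promoter of Mcm6, which fell 1.90-fold from 72.9 to 73.9 down to 37.9 to 39.1 FPKM, is shown for its 2 sites, in capitals at 110 to 103 and 47 to 40 bases before the start (chr1:128359706-128359955, minus strand).
Mcm6: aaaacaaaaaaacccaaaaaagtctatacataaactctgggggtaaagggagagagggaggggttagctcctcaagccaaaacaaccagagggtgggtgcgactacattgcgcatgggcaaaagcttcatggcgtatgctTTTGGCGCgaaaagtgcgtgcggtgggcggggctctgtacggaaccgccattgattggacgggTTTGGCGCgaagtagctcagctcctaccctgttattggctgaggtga

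Regulators of the G1 phase showed larger single changes. Of 20 tested, 4 rose, 14 fell and 2 did not pass (median -0.39). Ccnd1, the cyclin that growth factors raise, fell from 148, 145 and 144 to 11.7, 12.9 and 12.9 FPKM (-3.44 ± 0.03, 11.6-fold lower, limma adjusted p = 1.05e-15), while Ccnd2 and Ccnd3 fell 1.27-fold and 1.25-fold. Among the inhibitors of the cell cycle, Cdkn2c rose 6.45-fold and Cdkn1a (p21) 3.64-fold from 72.7 to 75.9 up to 268 to 274 FPKM, and Cdkn1b fell 2.54-fold, Cdkn2b 2.87-fold and Cdkn2a 2.28-fold. Rb1 (2.57-fold) and Myc (3.14-fold) rose. Of 16 targets of p53, 8 rose and 8 fell (median -0.05), among them Trp53inp1 (7.70-fold higher) and the death receptor gene Fas (4.49-fold lower), so that the list as a whole had no common direction.

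Contractile and stress fibre genes fell in 14 of 15, and 1 rose (median -2.66). Besides Acta2 and Myl9, Cnn2, which binds actin and myosin, was at 273, 271 and 271 FPKM at day 0 and 10.8, 11.5 and 10.4 FPKM at day 2 (-4.52 ± 0.03, 24.9-fold lower, limma adjusted p = 9.38e-17). The tropomyosin genes Tpm1 (11.3-fold) and Tpm4 (6.96-fold), caldesmon Cald1 (8.10-fold), alpha-actinin Actn1 (6.44-fold), nonmuscle myosin Myh9 (4.80-fold) and filamin Flna (4.29-fold) fell too, and Myh10 (1.81-fold) and vinculin Vcl (1.59-fold) fell less. Mylk, the kinase of myosin light chains, rose 1.93-fold from 4.33 to 4.76 up to 8.47 to 8.97 FPKM. Many of these genes are known targets of the serum response factor, whose site is the CArG box. A CArG box was in 3 of 15 promoters of the list (20.0%), those of Cnn2, Myl9 and Vcl, against 1.12% of all promoters. The promoter of Cnn2 is shown for its box, in capitals, at 56 to 47 bases before the start (chr10:79988350-79988599, plus strand).
Cnn2: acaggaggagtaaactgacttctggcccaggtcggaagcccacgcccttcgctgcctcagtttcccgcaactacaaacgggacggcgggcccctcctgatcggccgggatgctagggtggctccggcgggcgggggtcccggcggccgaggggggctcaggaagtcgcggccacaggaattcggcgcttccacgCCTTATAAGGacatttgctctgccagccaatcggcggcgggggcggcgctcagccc

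Targets of YAP and TAZ, coactivators that respond to cell spreading, were split by level of change rather than evenly. Of the 17 tested, which include the coactivator gene Wwtr1 besides targets, 12 fell and 5 rose (median -1.06). Ccn1 fell from 160, 157 and 158 to 13.5, 12.2 and 11.8 FPKM (12.7-fold), Ccn2 from 7.10 to 8.63 FPKM to 2 reads in all at day 2, and Ankrd1 from 5.22 to 6.35 down to 0.0245 to 0.0831 FPKM (131-fold). The receptor gene Axl fell 6.85-fold and the kinase gene Nuak2 45.3-fold. Those that rose did so by 1.22-fold to 1.56-fold, F3, Amotl1, Ptpn14, Amotl2 and Wwtr1, which encodes TAZ itself, and Yap1 fell 1.27-fold.

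Collagen genes changed in type. Of 18 tested 9 rose and 9 fell (median -0.01). The fibril-forming Col1a1 (chromosome 11, 94936224 to 94953042) fell from 3612, 3474 and 3521 to 159, 163 and 162 FPKM (-4.45 ± 0.03, 21.9-fold lower, limma adjusted p = 3.52e-17), Col1a2 7.91-fold, Col3a1 2.57-fold and Col5a2 3.04-fold. Col8a1 (52.2-fold), Col16a1 (9.07-fold) and Col12a1 (8.94-fold) fell as well. Chains of the basement membrane rose, Col4a1 from 354, 341 and 350 to 2170, 2196 and 2232 FPKM (2.66 ± 0.03, 6.32-fold, limma adjusted p = 1.71e-15) and Col4a2 6.41-fold, and so did the beaded filament chains Col6a3 (7.09-fold), Col6a2 (4.62-fold) and Col6a1 (3.52-fold). Col4a1 was below Col1a1 in every day 0 library and above it in every day 2 library, per gene length. The exception among basement membrane chains was Col4a5, which fell 2.36-fold, and Col5a3, of a fibril-forming type, rose 5.82-fold.

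Other matrix genes fell in 21 of 24, and 3 rose (median -2.04), and 20 fell under median-of-ratios scaling. Fibronectin Fn1 went from 1431 to 1483 down to 243 to 247 FPKM (5.92-fold), fibrillin Fbn1 from 142 to 145 down to 5.51 to 5.89 FPKM (25.2-fold), thrombospondin Thbs1 from 219 to 221 down to 6.08 to 6.72 FPKM (34.2-fold) and tenascin Tnc 32.5-fold. The crosslinking enzyme genes Loxl4 (41.3-fold), Loxl3 (14.4-fold) and Lox (12.1-fold) fell, while Loxl1 fell by 1.08-fold only. Plod2 (1.56-fold), Plod1 (1.29-fold), which modify collagen lysines, and periostin Postn (1.22-fold) rose. Proteases of the matrix and their inhibitors fell in 15 of 18, and 3 rose (median -2.34). The inhibitor genes Timp3, Timp1 (29.2-fold) and Timp2 (6.91-fold) fell along with the protease genes Mmp14 (4.88-fold), Mmp3 (32.9-fold) and Plat (69.2-fold). Mmp2 was at 274 to 287 and 259 to 264 FPKM, a fall of 1.07-fold that passed. Small falls depend on the scaling, and 13 of these genes fell under median-of-ratios scaling and 14 under quantile normalization. Adam12, a surface protease, rose from 21.7 to 24.4 up to 211 to 221 FPKM (9.37-fold).

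Surface markers of preadipocytes and mesenchymal cells fell in 14 of 15, and 1 rose (median -2.04). The platelet growth factor receptor gene Pdgfrb fell from 71.5, 70.4 and 72.2 to 3.27, 3.10 and 3.08 FPKM (22.7-fold) while Pdgfra fell 2.08-fold. Thy1 fell 16.2-fold, Ly6a (Sca-1) 18.3-fold and Cd34 11.4-fold. F3, tissue factor, rose 1.22-fold.

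Growth factor pathways of the TGF-beta and Wnt families gave mixed lists. Of 26 TGF-beta and BMP genes 9 rose, 16 fell and 1 did not pass (median -0.53). The ligand gene Tgfb3 fell 7.57-fold, the latent binding gene Ltbp1 7.97-fold, the BMP antagonist gene Grem1 130-fold and the feedback inhibitor gene Smad7 6.10-fold. The coreceptor gene Tgfbr3 rose 4.31-fold and the BMP target gene Id3 4.07-fold. Of 15 Wnt genes 7 rose and 8 fell (median -0.09). The ligand gene Wnt5a fell 5.44-fold, the secreted inhibitor gene Sfrp2 from 15.9 to 17.2 down to 0.174 to 0.344 FPKM (64.5-fold) and the receptor gene Fzd2 4.74-fold, while Fzd5 rose 3.31-fold and Lrp5 2.80-fold. Wnt10b, the ligand known to block fat cell formation, was below the minimum at 0.255 and then 0.0387 FPKM, and so was Wnt4, at 0.999 and 0.519 FPKM.

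Interferon-stimulated genes fell in 18 of 20, with 1 that rose and 1 that did not pass (median -1.79). Their levels were low, with 10 of 30 listed below the minimum. Isg15, a ubiquitin-like protein, was at 21.8, 22.1 and 21.6 FPKM at day 0 and 1.72, 1.88 and 0.579 FPKM at day 2 (-3.31 ± 0.18, 15.7-fold lower, limma adjusted p = 3.91e-09), with no overlap between the days. Oasl2 fell 92.8-fold, Xaf1 84.1-fold, Ifit2 44.6-fold and the tetherin gene Bst2 7.26-fold. Stat2 (3.27-fold) and Irf9 (3.44-fold), which relay the interferon signal, fell. The core of the interferon response element, searched as GAAA, any 2 bases and GAAA, was in 7 of 22 promoters of the list (31.8%), those of Bst2, Gbp3, Ifi203, Ifit1, Ifit3, Isg15 and Stat2, against 2.42% of all promoters. The promoter of Isg15 is shown for 3 overlapping matches, in capitals, between 78 and 57 bases before the start (chr4:156200819-156201068, minus strand).
Isg15: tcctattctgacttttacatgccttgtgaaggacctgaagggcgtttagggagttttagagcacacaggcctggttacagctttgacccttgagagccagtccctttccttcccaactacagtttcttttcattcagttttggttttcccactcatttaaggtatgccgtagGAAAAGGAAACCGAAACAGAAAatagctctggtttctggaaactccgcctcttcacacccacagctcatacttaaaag

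Chemokine, cytokine and prostaglandin genes fell in 13 of 17, and 4 rose (median -1.93). The monocyte chemokine genes Ccl2 (91.4, 96.1 and 93.4 down to 0.408, 1.38 and 0.764 FPKM) and Ccl7 (46.0-fold) fell furthest after Il1rl1, and the growth factor gene Csf1 fell 21.6-fold. Indomethacin blocks the enzymes encoded by Ptgs1 and Ptgs2. Ptgs1 fell from 296 to 308 down to 25.6 to 29.4 FPKM (11.2-fold) and Ptgs2 from 32.7 to 37.3 down to 1.40 to 1.88 FPKM (22.1-fold). The terminal synthase gene Ptges rose 2.64-fold, the inhibitor gene Nfkbia 3.81-fold and the acute phase gene Saa3 from 0.129 to 0.315 up to 7.28 to 9.55 FPKM (39.9-fold).

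For the remaining promoter searches, the C/EBP site, searched as TTGCNNAA, was in 3 of 10 promoters of fat cell markers (30.0%), those of Cidec, Plin1 and Pparg, against 7.39% of all promoters. The site of NRF1, searched as GCGCAT followed directly by GCGC, and that of the estrogen-related receptors (TCAAGGTCA), both known regulators of respiratory genes, were in 0 of 20 promoters of oxidative phosphorylation genes, against 1.75% and 0.238% of all promoters, which says only that these letters are not in these windows. Matches of one motif that overlap a match of another were counted for both.

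Stress and protein folding genes went both ways. Of 24 genes of the endoplasmic reticulum stress and ATF4 pathways 13 rose and 10 fell (median 0.23), and under median-of-ratios scaling 14 rose and 6 fell. Dnajb9 rose from 13.6 to 15.6 up to 190 to 197 FPKM (13.4-fold), the stress factor genes Ddit3 2.00-fold and Xbp1 1.95-fold, and the serine synthesis gene Phgdh fell 1.86-fold. The main chaperone gene of the endoplasmic reticulum, Hspa5, fell by 1.09-fold. Of 23 oxidative stress genes 11 rose and 11 fell (median -0.06), with Sod2 of mitochondria (3.84-fold), Prdx3 (3.70-fold) and Mgst1 (3.39-fold) higher and Nqo1 (5.42-fold) and Gstm1 (6.72-fold), targets of the factor NRF2, lower. Of 20 heat shock genes 8 rose and 9 fell (median 0.03). The mitochondrial chaperone genes Hspd1 (3.24-fold) and Hspe1 (2.52-fold) rose and the cytosolic Hsph1 fell 2.42-fold. For Hsp90aa1 the fall of -2.36 ± 1.00 (limma adjusted p = 0.0448) rests on WT day 0 replicate 3, and without that library it is -0.72 (limma adjusted p = 0.000552).

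Ribosomal protein genes fell in 30 of 35, with 1 that rose (median -0.25), and the range was narrow. Rplp0 fell 1.24-fold from 2940 to 3039 down to 2375 to 2409 FPKM, and the largest fall, that of Rpl30, was 1.53-fold. Quantile normalization moves the median of all genes from -0.11 to 0.01, and median-of-ratios scaling moves it to -0.02. Relative to that, 25 of these genes fell under median-of-ratios scaling and 24 fell with 3 that rose under quantile normalization. Ribosome biogenesis genes were close to the median of all genes (6 rose, 12 fell, median -0.16), and under median-of-ratios scaling 10 rose and 9 fell. Nop10, a subunit of a small RNA particle, rose 1.94-fold.

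The machinery of m6A, a methyl mark on RNA, changed little. Of 23 genes tested 4 rose, 13 fell and 6 did not pass (median -0.19), and under median-of-ratios or quantile scaling 8 rose and 11 fell, so that the balance depends on the scaling. The methyltransferase gene Mettl3 was at 22.5, 23.3 and 22.3 FPKM at day 0 and 18.5, 18.0 and 17.4 FPKM at day 2 (-0.32 ± 0.04, 1.26-fold lower, limma adjusted p = 1.68e-05). Its partner Mettl14 was at 7.40 to 8.68 and 6.98 to 7.25 FPKM (-0.15 ± 0.06, limma adjusted p = 0.0380), a call that is lost under several settings. The demethylase gene Alkbh5 fell 1.48-fold and the reader gene Ythdf2 1.32-fold, and the demethylase gene Fto was at 21.0 to 23.0 and 23.4 to 23.9 FPKM (0.10 ± 0.03, limma adjusted p = 0.0145). The call for Fto is lost without WT day 0 replicate 3 (limma adjusted p = 0.0680) and with the 6 WT libraries alone (limma adjusted p = 0.0505). The largest changes were those of the reader genes Igf2bp1 (1.94-fold lower) and Igf2bp3 (1.89-fold lower).

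Zfp217, the zinc finger gene of the series (chromosome 2, 170108643 to 170151677), fell in WT cells from 21.7, 21.9 and 22.3 to 14.6, 15.3 and 15.3 FPKM (-0.52 ± 0.04, 1.46-fold lower, limma adjusted p = 4.62e-08), with no overlap. In KO-labelled cells its mean was 26.0 FPKM at day 0 and 22.6 FPKM at day 2, so that its message was no lower than in WT on either day. A gene-level value would not show a small insertion or deletion. Of Zfp217 and 14 genes for its repressor partners 10 fell and 3 rose (median -0.52), among them Ctbp2 (2.26-fold lower), Rcor2 (1.80-fold lower) and Hdac1 (1.63-fold lower). Of 12 DNA methylation genes 5 rose and 6 fell (median -0.30), with the maintenance enzyme gene Dnmt1 3.05-fold lower and the de novo enzyme gene Dnmt3a 1.71-fold higher. Of 8 Hox genes tested 5 rose and 3 fell (median 0.44), such as Hoxd8 (33.1 to 34.2 up to 136 to 144 FPKM, 4.14-fold) and Hoxa2 (5.66-fold lower). Lysosome genes fell in 15 of 22, and 7 rose (median -0.41), against 46.8% and 35.2% of all genes. Under median-of-ratios scaling 13 fell. The protease genes Ctsa (4.06-fold) and Ctsl (2.94-fold) fell, and Npc2, which carries cholesterol, and Tfeb, the master regulator of lysosomes, rose 1.99-fold and 2.40-fold.

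The tested markers of the labelled cell type, a fibroblast line, fell by day 2. Their day 0 levels differed widely, with means of 3536 FPKM for Col1a1 and 6.37 FPKM for S100a4. Markers listed for cell types other than fat cells were mostly low or absent, with bone markers as an exception. The summed level of 10 fat cell markers was 69.0 to 74.2 FPKM at day 0 and 7849 to 8040 FPKM at day 2, all 9 tested rose, and Lep was at 0. The summed level of 10 fibroblast markers, such as Vim and Thy1, went from 10232 to 10522 down to 1412 to 1446 FPKM. All 9 tested fell, and 1 was below the minimum. Of 8 macrophage markers 1 was tested, Cd68, which rose 2.94-fold from 1.57 to 2.67 up to 5.01 to 6.59 FPKM, and the defining Adgre1 was at 0. No endothelial, skeletal muscle or epithelial marker of 7 each reached the minimum, with summed means of 0.535 and 0.133, 1.75 and 1.23, and 0.293 and 0.703 FPKM at day 0 and day 2, and Myod1 and Epcam were at 0. Osteoblast markers summed to 563 and then 24.4 FPKM. Of the 3 tested, Spp1 (511 to 531 down to 9.24 to 9.71 FPKM) and the bone regulator gene Runx2 (means of 37.1 and then 10.8 FPKM) fell, and the phosphatase gene Alpl, with 3 reads in all at day 0, rose to 3.39 to 4.14 FPKM. Sp7, which defines the osteoblast, was at a mean of 0.0112 and 0.0106 FPKM. Of the chondrocyte markers, which summed to 28.6 and 7.16 FPKM, Sox9 fell and Comp did not pass, and Acan was at 0.

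The WT response differed from that of the KO-labelled cells in most genes. The difference, tested as an interaction over 12 libraries, passed in 9341 of the 12549 genes (74.4%), with the WT change above the other in 4105 (32.7%) and below it in 5236 (41.7%). The WT and KO-labelled responses share no library. In KO-labelled cells 34.5% of all genes rose and 37.8% fell, with a median change of -0.02. Of the 1239 genes that rose by 1 or more on the fitted log2 scale in WT, 842 also rose in KO-labelled cells, 140 fell and 257 did not pass, and their median change was 1.54 in WT and 0.41 in KO-labelled cells. Of the 1945 that fell by as much, 1370 fell, 334 rose and 241 did not pass, with medians of -1.58 and -0.52. As these genes were chosen by their WT change, their smaller change in the other cells is partly set by that choice. The lines also differed at day 0 in genes such as Acta2, at a mean of 541 FPKM in WT and 74.0 FPKM in KO-labelled cells, so that a difference in change and a difference in starting level cannot be told apart here.

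By list the responses differed in fat cell genes, cell division and sterol synthesis, among others. The interaction passed with the WT change above in all 9 fat cell markers tested and in 32.7% of all genes. With a day 0 mean below 1 FPKM, 5 of these 9 met the minimum, which is set on WT libraries, only through WT day 2, which favours that direction, so that the count is a description. Fabp4 reached a mean of 10.3 FPKM in KO-labelled cells at day 2 against 2975 FPKM in WT (interaction 8.39, limma adjusted p = 2.62e-10). All 26 mitotic genes had a WT change below that of KO-labelled cells, against 41.7% of all genes. In KO-labelled cells all 26 rose, against 34.5% of all genes. The WT change was also below in 21 of 23 cholesterol genes. The KO-labelled levels of Ccnb1 and Hmgcs1 nevertheless stayed below those of WT on both days. Ccnb1 went from a mean of 2.72 to 13.2 FPKM there and from 88.3 to 53.9 FPKM in WT. Hmgcs1 went from 32.0 to 71.2 FPKM there and from 196 to 322 FPKM in WT. Of 35 ribosomal protein genes 33 rose in KO-labelled cells and 30 fell in WT. Interferon-stimulated genes fell in both, with a median of -1.79 in WT and -3.40 in KO-labelled cells. The glucocorticoid list had medians of 2.13 in WT and 2.50 in KO-labelled cells, with 6 genes where WT was above and 10 where it was below. Fkbp5 rose by 4.39 in WT and by 5.85 in KO-labelled cells, and Per1 by 1.91 and 1.99 (interaction -0.08, limma adjusted p = 0.154). Pparg rose in both, by 3.75 and 3.18 (interaction 0.57, limma adjusted p = 0.00127), from means of 10.2 and 2.85 FPKM, and Cebpd rose less in WT, by 1.41 against 4.04. The opposite direction of change was seen in Ccn1 (12.7-fold lower in WT, mean 24.0 to 85.0 FPKM in KO-labelled cells) and in the vitamin D receptor gene Vdr (76.3, 72.3 and 67.6 down to 13.9, 13.6 and 14.9 FPKM in WT, mean 14.2 to 165 FPKM in KO-labelled cells). In 884 genes WT rose and KO-labelled cells fell, and in 1442 WT fell and KO-labelled cells rose.

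**Figure D5:**
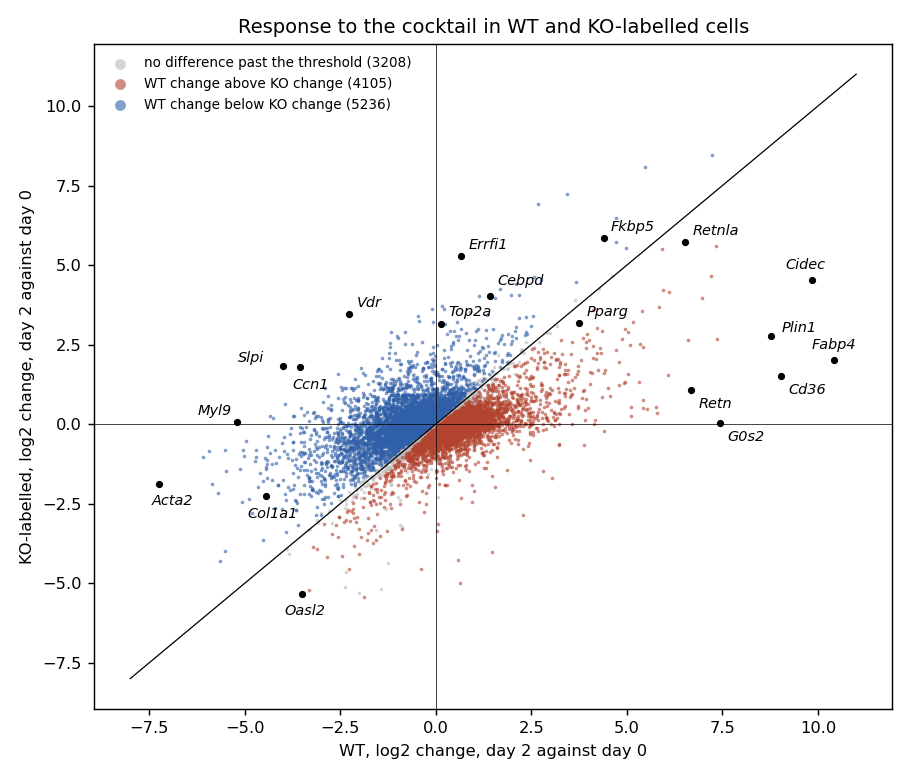
Log2 change between day 0 and day 2 of each tested gene in WT cells (horizontal axis) and in KO-labelled cells (vertical axis), each point a gene, coloured by whether the difference between the changes passed. Fabp4, Cd36, G0s2, Plin1 and Retn lie at the right, far below the diagonal of equal changes, and Slpi, Vdr and Ccn1 lie at the upper left.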

How the data were processed

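RNA sequencing libraries of WT and KO-labelled 3T3-L1 cells at day 0 and day 2, 3 per group, were analysed. Per the labels' protocols, RNA was taken with Trizol and libraries were made with a NEBNext Ultra kit. The deposited table gives FPKM per gene, and the authors' processing notes name the build mm10 with TopHat2 2.0.12, Bowtie2 2.2.3 and HTSeq 0.6.1. The annotation, the use of strand, the treatment of reads with several matches and the exact FPKM formula are not known from the labels or the table. The series' 24 samples of m6A immunoprecipitation and input were not analysed here.

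FPKM values within a library were whole multiples of what 1 read is worth in all 30916 genes above 0 (tolerance 0.001 reads), which gave whole reads and depth per library. The main test used limma 3.58.1 in R 4.3.3 on log2(FPKM + 1), fitting 4 group means over 12 libraries (8 residual degrees of freedom), a variance trend and 2-sided moderated tests, with Benjamini-Hochberg adjustment over the 12549 genes and a threshold of 0.05. The interaction is the WT change minus the KO-labelled change in the same fit. With 3 libraries against 3, an exact permutation test of a single gene cannot go below p = 0.1. On simulated counts with a dispersion of 0.005, the WT comparison recovered 6% of 50 genes changed 1.2-fold, 84% of 50 changed 1.5-fold and 86% of 50 changed 2-fold, and called 9 of 12349 unchanged genes. That setting is unlike the data. It had few changed genes and the same dispersion for every gene, whereas 82.0% of genes were called in the data. The rates therefore describe the simulation only.

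Gene lists and members were chosen with earlier results of these data known. Genes named are the 12 largest rises and falls without overlap between the days, up to 5 passing members with the largest change per list, genes fixed by name, the 5 extremes of the interaction in each direction, the 5 most abundant per day and genes with no reads on a day. Other list members named were chosen after their values were seen, as examples of size or direction. Replicate numbers did not pair the libraries (correlations of same-numbered WT deviations from -0.001 to 0.086), and no pair of libraries was alike within counting noise. Alternatives were other pseudocounts, filters and scalings, a test on the recovered reads, and leaving out each library. Some genes are not reported here.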

Additional observations from a re-analysis of the deposited data

Results flagged for a closer look

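The change from day 0 to day 2 differed between WT and KO-labelled cells, by the interaction test, in 9341 genes, and the 10 extremes are given as log2 differences of the changes, WT minus KO-labelled. The WT change was higher for Fabp4 (8.39), Cd36 (7.54), G0s2 (7.39), Plin1 (5.99) and Retn (5.61). G0s2, for example, was at 178 to 179 FPKM in WT cells at day 2 after 2 reads in all at day 0. The WT change was lower for Slpi (-5.85), a protease inhibitor, Vdr (-5.72), Acta2 (-5.40), Ccn1 (-5.35) and Myl9 (-5.27). Slpi fell from 29.5, 26.5 and 26.7 to 0.859, 0.373 and 1.19 FPKM in WT cells and had means of 5.86 and 23.5 FPKM in KO-labelled cells. Myl9 was near 0 in KO-labelled cells on both days, at means of 0 and 0.0499 FPKM. Acta2 started there at 74.0 FPKM, too low for a fall of the WT size, -7.26, on the log2(FPKM + 1) scale. A fall of the WT size could therefore not have been seen in either gene. These 10 genes were picked as extremes of many, and their sizes are descriptions.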

How the results depend on the processing

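With any 1 WT library left out, the genes that rose numbered 4253 to 4314 and those that fell 5735 to 5767, and those past a fitted log2 change of 1 were 1231 to 1261 and 1938 to 1965. Leaving out a KO-labelled library gave 4396 to 4426 that rose and 5858 to 5887 that fell. With any 1 of the 12 libraries left out, the interaction passed in 9113 to 9183. The other alternatives gave 3582 (minimum of 5 FPKM) to 5358 (no filter) that rose, 4734 to 7398 that fell under the same pair, and 7728 to 11392 with an interaction, all within 1.5 times the reported counts. Median changes of some lists turned sign, and several of these were near 0 as reported. Further from 0 were chondrocyte markers (-1.07, 2 tested), macrophage markers (1.21, 1 tested), Hox genes (0.44) and DNA methylation genes (-0.30). With no filter the medians were 0.03 for p53 targets, 0.03 for collagens, 0.05 for oxidative stress, -0.06 for heat shock and 0.03 for chondrocyte markers. Under median-of-ratios scaling they were 0.03 for p53 targets, 0.09 for collagens, 0.01 for Wnt genes and 0.04 for oxidative stress. Under quantile normalization they were 0.05 for p53 targets, 0.03 for Wnt genes and -0.06 for heat shock, and the change of Mettl14 was 0.10 (limma adjusted p = 0.161). TPM scaling gave 0.01 for collagens, a minimum of 5 FPKM gave 0.06 for DNA methylation and -0.20 for Hox genes, and a minimum over all 12 libraries gave -0.01 for macrophage markers. With 1 library left out, collagens ranged from -0.03 (without WT day 0 replicate 2) to 0.01 (without replicate 3), ribosome biogenesis genes from -0.20 to 0.00 and mt-Rnr1 from -1.32 to 1.32 without the same replicates. Of the 254 genes named by rule, 250 kept their direction and side of the threshold under every alternative in which they were tested. A higher minimum left some low genes untested, and these were not counted as changed. The exceptions were Hsp90aa1, Mettl14, Fto and mt-Rnr1. Many of the 254 were picked for large changes that passed, which favours such stability. List members named as examples were not counted, among them Lipa and Top2a, whose calls were lost under the scalings given above. The cause of these shifts was not tested. Genes with few reads limit what can be seen, since folds of genes near 0 rest on single reads.

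The fit with a replicate block, which the labels do not support as a pairing, gave 4377 genes that rose, 5856 that fell, 1239 and 1949 at 2-fold, and 9216 with an interaction.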
